A study of Dendroctonus valens with 12 samples.

Results

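Larvae of the red turpentine beetle, Dendroctonus valens, were compared between winter and spring, as 3 January larvae against 3 May larvae, which are 6 of the 12 libraries of the series. The members were chosen by developmental stage and by the labels cold (January) and normal (May), so no measured value placed a larva in its group. Each library came from 1 whole field-collected larva of a late instar, stored in liquid nitrogen after collection in the same nature reserve. No treatment was applied, the sex of the larvae was not stated, and all insects of a month were collected on the same day, so that month, temperature, feeding state and handling cannot be told apart. The other 6 libraries, of adults, are not described here. Expression was measured as FPKM, a fragment count normalised for unigene length and for the mapped fragments of the library, on 58956 unigenes, which are transcripts assembled without a genome.

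D. valens larvae feed on phloem at the base of pines and live through the winter beneath the bark. As background, overwintering insect larvae commonly slow feeding and growth, clear or shrink the gut, and draw on stored fat, while trehalose, the main sugar of insect blood, moves between tissues through membrane transporters. Heat shock proteins are chaperones that refold or hold damaged proteins, and chromatin and transcription regulators set which genes can be read. In RNA from whole insects, fewer cells of a type and less RNA per cell cannot be told apart.

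The libraries differed in composition before any gene was compared. January larvae 1, 2 and 3 held 18600, 15028 and 25771 unigenes at 1 FPKM or more, and May larvae 1, 2 and 3 held 16681, 8291 and 8428. The numbers overlapped between the months (mean 19799.7 ± 5471 in January and 11133 ± 4805 in May, SD, n = 3 each, exact permutation p = 0.2, where 0.1 is the smallest possible). The 20 most abundant unigenes took 27.5 to 42.6% of the summed FPKM in January larvae and 35.0 to 63.6% in May larvae. January larva 3 and May larva 1 stood apart, because 4823 unigenes reached 1 FPKM in both of them and stayed under 0.1 FPKM in the other 4 larvae. In January larva 3 these unigenes held 4.88% of all FPKM, and in May larva 1 they held 4.07%. They were left out, although none of them would have passed the filter on low values.

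**Figure D1:**
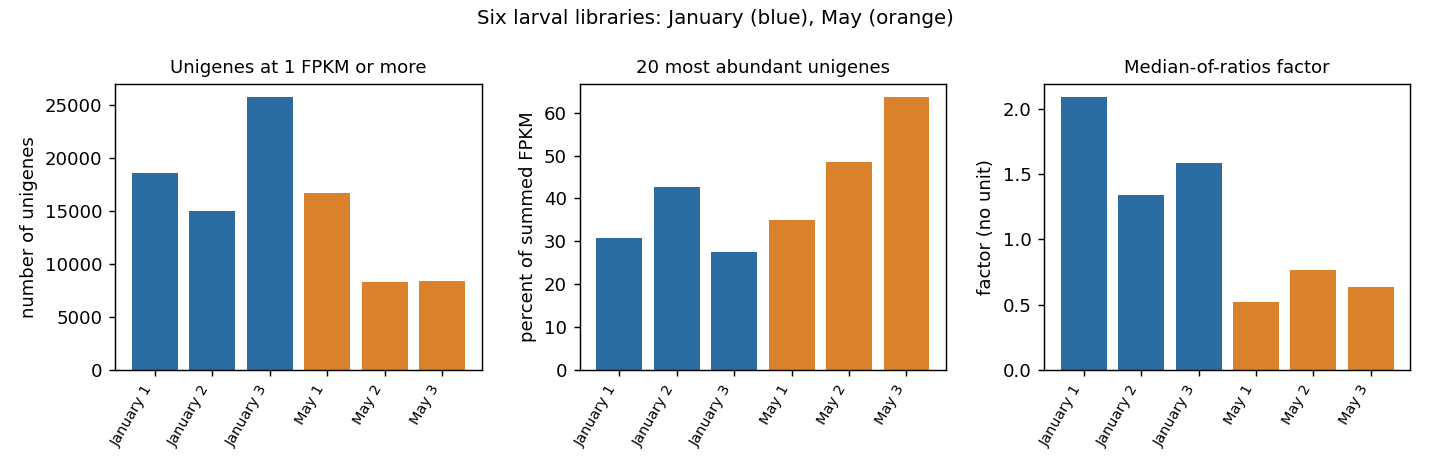
Bars give, for each larval library (January in blue, May in orange), the number of unigenes at 1 FPKM or more, the percent of summed FPKM in the 20 most abundant unigenes, and the scaling factor by which FPKM were divided. All 3 January factors (1.34 to 2.09) lie above all 3 May factors (0.52 to 0.77), and May larvae 2 and 3 have the fewest unigenes.

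FPKM were divided by a median-of-ratios factor taken over the 9837 unigenes above 0 in all 6 larvae, and values given below are these scaled FPKM. The factors were 2.09, 1.34 and 1.59 for January larvae 1 to 3, and 0.52, 0.77 and 0.63 for May larvae 1 to 3. A unigene was tested when it reached 1 FPKM, before scaling, in at least 3 larvae, which held for 11635 unigenes. A call required that limma gave an adjusted p below 0.01 and that January minus May differed by at least 1, in either direction, on the scale log2(scaled FPKM + 1). This scale understates the change of unigenes with low values, and with 3 larvae in each group a unigene without a call may still differ.

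Of the 11635 unigenes, 1662 were called higher in January larvae (14.3%) and 1141 lower (9.81%), together 24.1%. The groups did not overlap for 3955 unigenes that were higher in January larvae (34.0%) and 2729 that were lower (23.5%), together 6684 or 57.4%. The median log2 fold change of all tested unigenes was 0.32, and the median standard error was 0.41. Unigenes called higher were mostly of low level, with a median over unigenes of 6.16 scaled FPKM in January larvae, against 0.32 in May larvae. Of them 469 were listed at 0 in all 3 May larvae. Unigenes called lower were more abundant, with a median of 6.86 scaled FPKM in January larvae, against 65.1 in May larvae, and 34 of them were listed at 0 in all 3 January larvae. A unigene under 1 FPKM, before scaling, in all 3 larvae of a month passed the filter through the other month alone. Its call and adjusted p are therefore a description and no separate support. Before scaling, 823 of the tested unigenes had 1 FPKM or more in all January larvae and under 0.1 in all May larvae. The reverse held for 38. Scaling lowers January values and raises May values, and the count was not repeated on scaled FPKM.

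The balance of the calls depended on the scaling, and their number on single libraries. January-higher calls made up 59.3% of all calls after scaling and 89.8% on FPKM as deposited, where the median log2 fold change of all tested unigenes was 1.26. With FPKM sums made equal without the 20 most abundant unigenes it was 88.7%, and without the filter on low values 33.1% of 181 calls. Without May larva 1 only 127 unigenes were called, 49 higher and 78 lower in January larvae. Without January larva 3 there were 906 calls. Without both of these larvae none was called by limma, although 4729 unigenes had an unadjusted p under 0.05, and no called unigene changed direction in these runs without a larva. Without January larva 1 or 2, or May larva 2 or 3, there were 730 to 1443 calls. Of 168 unigenes named by rule 124 were called, and 12 of these remained called without May larva 1, so that those of the 124 described below lost their call without that larva unless stated otherwise.

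**Figure D2:**
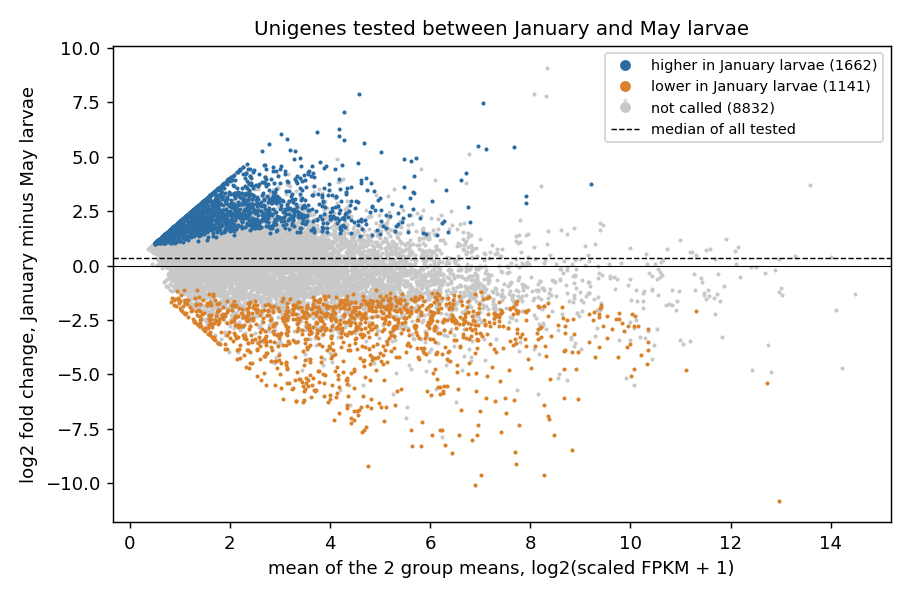
Each point is 1 of 11635 unigenes, with the mean of both group means on the x axis and the log2 fold change, January minus May larvae, on the y axis. The 1662 higher calls crowd at low mean levels, the 1141 lower calls reach the far end of the level axis, and the dashed line marks the median of 0.32.

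**Figure D3:**
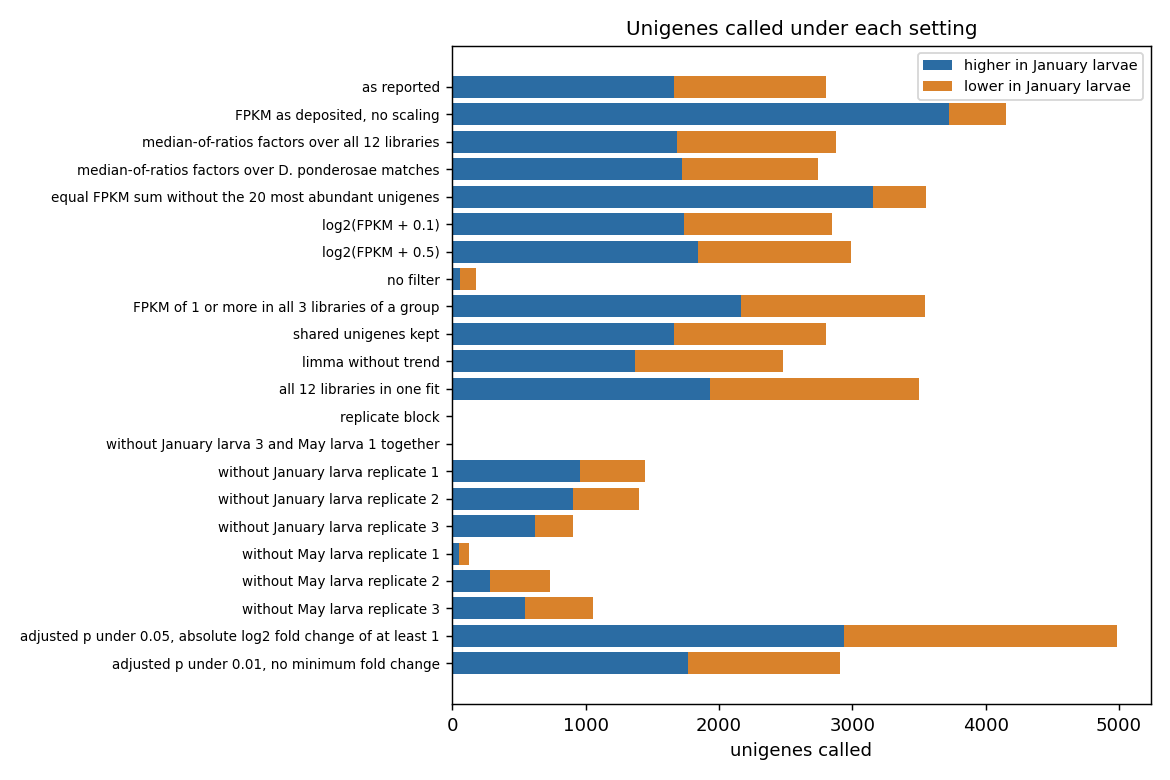
Stacked bars give the number of unigenes called under each setting, higher in January larvae in blue and lower in orange. Calls number 2803 as reported, 4149 on FPKM as deposited (89.8% higher in January larvae), 127 without May larva 1 and 0 without January larva 3 and May larva 1 together or with a replicate block.

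Chaperones of the heat shock 70 family held the 2 called members of the heat shock list, and both were lower in January larvae. Scaled FPKM of the heat shock protein 70 A1-like unigene TRINITY_DN26176_c0_g3 were 152, 13.3 and 54.4 in January larvae, against 2761, 2739.8 and 5064 in May larvae. Every January value lay below every May value, which was a condition of a rule that named this unigene. It fell by 6.09 ± 0.87 on the log2 scale (SE, adjusted p = 0.00361). Heat shock 70 kDa protein cognate 3, TRINITY_DN22210_c3_g1, is the chaperone of the endoplasmic reticulum in Drosophila. It had 44.2, 52.0 and 42.3 scaled FPKM in January larvae, against 428, 576 and 1128 in May larvae (log2 fold change -3.80 ± 0.41, adjusted p = 0.00208). The list had 8 members, of which 6 were tested and 33.3% of these were called lower, beside 9.81% of all unigenes. The other 4 were not called. The list median was -0.15 beside 0.32 for all unigenes tested, but without scaling it was 0.75 beside 1.26, and 2 members were higher and 2 lower.

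Solute transporters were called in both directions. Of 44 listed, 37 were tested, and 6 were higher and 6 lower in January larvae (16.2% each). Of all unigenes 14.3% were higher and 9.81% lower. The list median was -0.36. Without scaling 9 were higher and 5 lower, and the median was 0.52. The lower members were the larger changes. A probable multidrug resistance-associated protein, an ABC exporter, TRINITY_DN25195_c0_g1, had 3.44, 2.56 and 1.5 scaled FPKM in January larvae, against 93.8, 122 and 149.9 in May larvae. It fell by 5.15 ± 0.34 on the log2 scale (adjusted p = 0.00188) and remained called with any single larva left out. The peptide transporter family 1-like unigene TRINITY_DN25080_c1_g1, of the family that takes up small peptides, had 14.8, 10.1 and 17.1 scaled FPKM in January larvae, against 303, 179.5 and 241 in May larvae, and it too kept its call in each of these runs (log2 fold change -4.01 ± 0.33, adjusted p = 0.00188).

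Facilitated trehalose transporters (Tret1) carry trehalose across cell membranes. Among them, TRINITY_DN20184_c0_g1 had 0.158, 1.07 and 0.573 scaled FPKM in January larvae, against 66.3, 21.1 and 22.0 in May larvae (log2 fold change -4.38 ± 0.54, adjusted p = 0.00258). Another Tret1-like unigene, TRINITY_DN21956_c0_g7, had 2.11, 2.91 and 1.83 in January larvae, against 84.2, 16.1 and 53.9 scaled FPKM in May larvae (log2 fold change -3.73 ± 0.62, adjusted p = 0.0053). Not all unigenes of this name fell, as 1 other, picked out after its values were seen, was higher. This was TRINITY_DN25295_c0_g2 (log2 fold change 1.40 ± 0.19, adjusted p = 0.00319). Monocarboxylate transporter 7-like, TRINITY_DN27637_c2_g1, of a family that moves lactate, pyruvate and related acids, had 12.1, 10.7 and 7.07 scaled FPKM in January larvae, against 146, 66.8 and 159 in May larvae (log2 fold change -3.44 ± 0.42, adjusted p = 0.00254). On the higher side stood the mitochondrial folate carrier TRINITY_DN21720_c0_g1, with 18.6, 24.3 and 18.0 scaled FPKM in January larvae, against 1.71, 1.76 and 3.06 in May larvae (log2 fold change 2.76 ± 0.33, adjusted p = 0.00248). A GABA transporter of the inebriated type, TRINITY_DN24005_c1_g1, had 25.1, 12.3 and 14.5 in January larvae against 2.28, 2.74 and 3.64 scaled FPKM in May larvae (log2 fold change 2.19 ± 0.38, adjusted p = 0.00601).

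**Figure D4:**
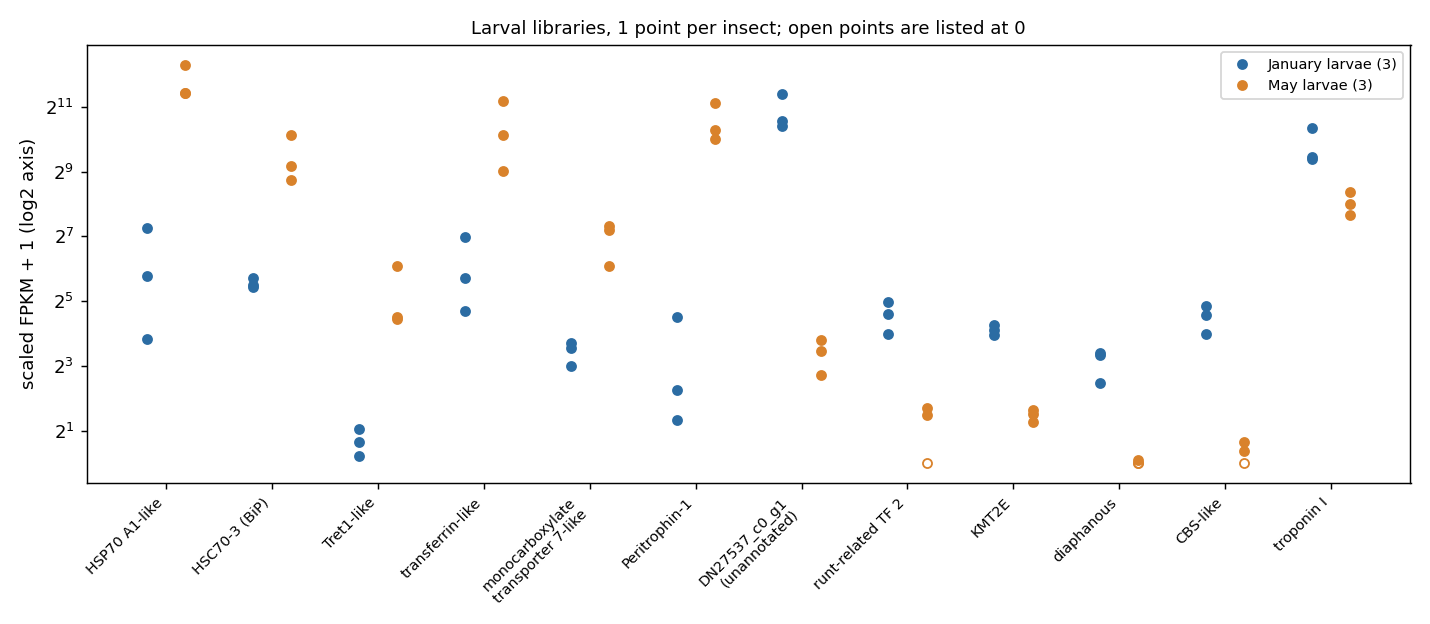
Points show scaled FPKM + 1 on a log2 axis for 12 unigenes, with 1 point per larva, January in blue to the left of May in orange, and open points where the value is listed at 0. For each unigene the 3 January points do not overlap the 3 May points. Non-overlap was a condition for naming all of them except TRINITY_DN27537_c0_g1 and troponin I. The log2 fold changes run from -7.76 for Peritrophin-1 to 7.46 for TRINITY_DN27537_c0_g1, and troponin I is the 1 unigene shown that was not called.

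Digestive hydrolases were called in both directions in the unselected annotation. In this annotation, drawn without regard to expression, 13 of 15 listed hydrolases were tested. In January larvae 3 were lower (23.1%) and 1 higher (7.69%), beside 9.81 and 14.3% of all unigenes. The median log2 fold change was -1.25. Without scaling 2 were lower and 2 higher, and the median was 0.05 beside 1.26 for all unigenes. Beta-galactosidase-1-like protein 2, TRINITY_DN24586_c0_g3, an enzyme that releases galactose from sugar chains, had 0, 2.26 and 0.636 scaled FPKM in January larvae, against 76.1, 61.7 and 107 in May larvae. It fell by 5.53 ± 0.51 on the log2 scale (adjusted p = 0.00188). A transmembrane serine protease 9-like unigene, TRINITY_DN22443_c0_g1, and neprilysin-11, TRINITY_DN26021_c3_g1, a membrane metallopeptidase, were lower by smaller amounts (log2 fold changes -2.76 ± 0.38 and -1.75 ± 0.25), and neprilysin-11 was not called without scaling. Aminopeptidase N-like, TRINITY_DN23116_c1_g1, of a family of membrane peptidases common in the insect midgut, went the other way, with 11.4, 15.9 and 16.5 scaled FPKM in January larvae, against 0.632, 1.14 and 1.86 in May larvae (log2 fold change 2.84 ± 0.36, adjusted p = 0.00282).

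A second source of names was the study's table of genes that it selected as changed on these same libraries, so counts from it are a description and not independent evidence of direction. Of its rows held 636 were tested, 185 were higher (29.1%) and 238 lower (37.4%) in January larvae, and their median log2 fold change was -1.33. Of its glycoside hydrolases, enzymes that cut plant and fungal polysaccharides, 25 of 27 tested were lower in January larvae and none was higher, with a median of -5.72. An endoglucanase-like unigene, TRINITY_DN22700_c3_g2, which by its name cuts cellulose chains internally, had 2.88, 51.8 and 1.70 scaled FPKM in January larvae, against 2602, 1340.4 and 1715 in May larvae (log2 fold change -7.79 ± 1.13, adjusted p = 0.00374). Exoglucanase B, TRINITY_DN23919_c1_g1, had 0.215, 2.88 and 0.712 in January larvae, against 505, 135 and 606 scaled FPKM in May larvae (log2 fold change -7.43 ± 0.71, adjusted p = 0.00194). January larva 2 held the highest January value of both. The 25 lower calls became 17 without January larva 3, 10 without May larva 1 and 24 on FPKM as deposited.

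Peptidases of the same table had 14 of 17 tested lower and none higher (median -4.94), against 9 lower and 1 higher without scaling. Cathepsin L1-like, TRINITY_DN18927_c0_g1, whose closest reviewed protein is a digestive cysteine proteinase, had 2.68, 37.9 and 2.97 scaled FPKM in January larvae, against 922, 300.4 and 458 in May larvae (log2 fold change -5.92 ± 1.0, adjusted p = 0.00548). Brachyurin-like, TRINITY_DN17874_c0_g1, a serine peptidase, had 1.23, 1.82 and 0.346 in January larvae, against 187, 125 and 81.4 scaled FPKM in May larvae, and it remained called with any single larva left out (log2 fold change -5.94 ± 0.45, adjusted p = 0.00188). Of carboxylesterases and lipases, which split ester bonds of lipids and plant compounds, 10 of 12 tested were lower and none was higher (median -4.33). The 12 lower of 13 tested members of the KEGG lysosome pathway were partly the same cathepsins, and 6 of them were counted on FPKM as deposited. Without May larva 1 the lower calls were 2 for peptidases, 3 for carboxylesterases and lipases and 1 for the lysosome list.

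The gut lining and cuticle list of that table, which holds peritrophins, glucan-binding proteins and 2 cuticle proteins, had 6 of 8 tested members lower and none higher (median -5.12). The lower calls became 5 without January larva 3 and 1 without May larva 1. Peritrophin-1, TRINITY_DN24281_c0_g1, of a family that binds chitin in the sheath around the food, had 22.1, 3.77 and 1.53 scaled FPKM in January larvae, against 1242, 1029 and 2224 in May larvae (log2 fold change -7.76 ± 0.84, adjusted p = 0.00208). Beta-1,3-glucan-binding protein, TRINITY_DN22783_c1_g4, had 1.09, 1.68 and 0.208 in January larvae, against 318, 204 and 209.8 scaled FPKM in May larvae (log2 fold change -6.99 ± 0.40, adjusted p = 0.00153). This unigene is also counted among the glycoside hydrolases, and it remained called with any single larva left out. Glucose dehydrogenase, TRINITY_DN19851_c0_g1, showed the largest fall among unigenes named from the table. It had 0.239, 23.9 and 1.80 scaled FPKM in January larvae, against 1597, 1768 and 1747 in May larvae (log2 fold change -8.59 ± 1.06, adjusted p = 0.00255).

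**Figure D5:**
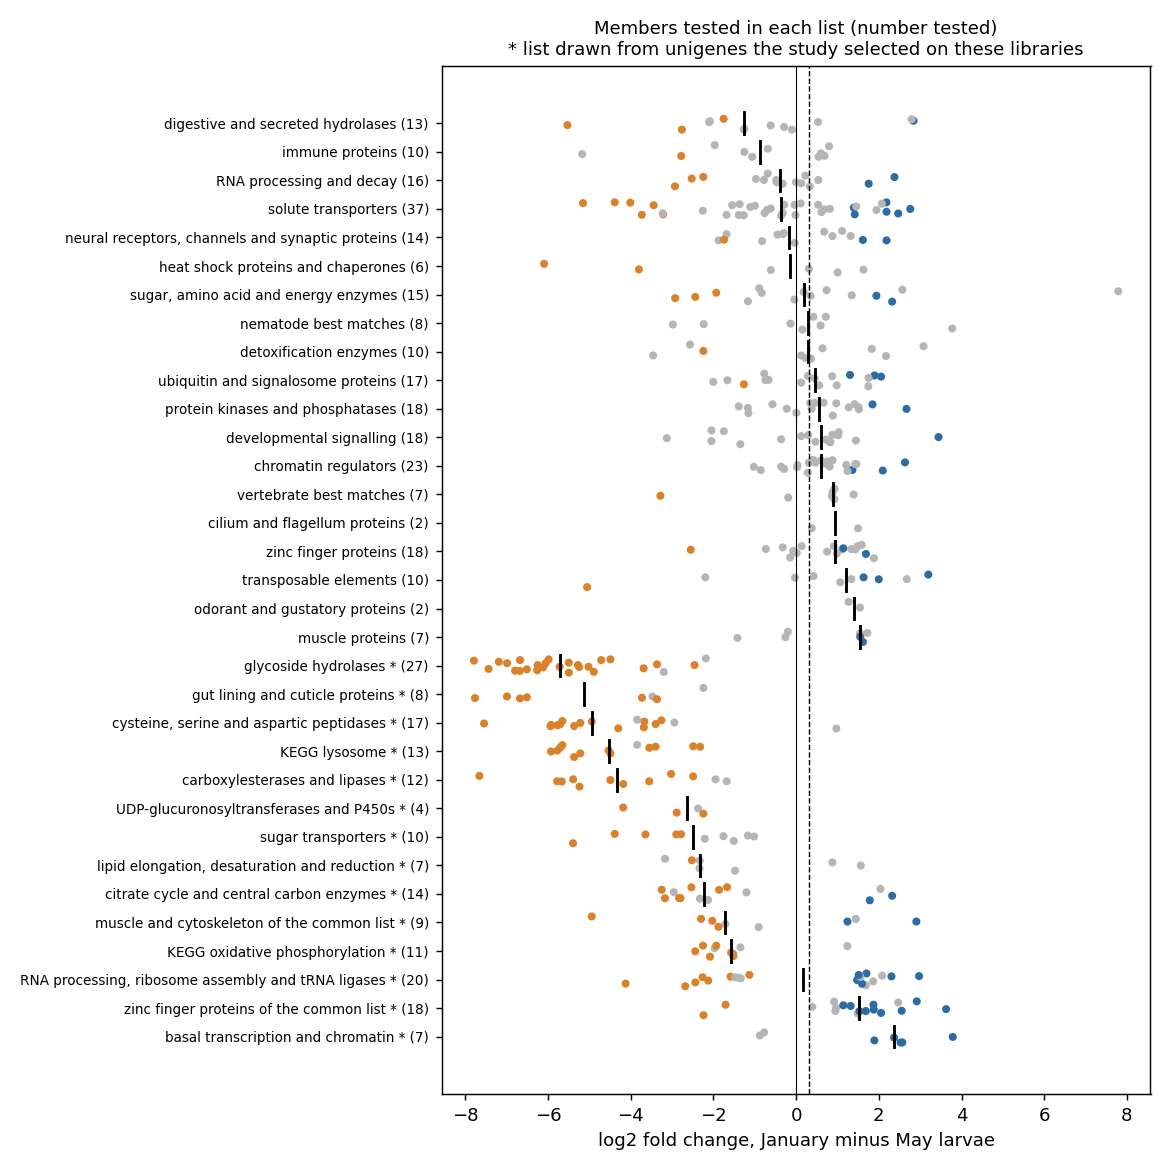
Each row is a list with its number of tested members, each point a member's log2 fold change, January minus May larvae, coloured blue where called higher, orange where called lower and grey where not called. Black bars mark list medians and the dashed line the median of all unigenes tested, 0.32. Lists with a star came from unigenes that the study had selected on these libraries, and among them glycoside hydrolases lie farthest to the left, at -5.72.

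Most called unigenes of energy metabolism in the study-selected table were lower in January larvae, by smaller amounts, and the lower calls were lost without scaling. Of the oxidative phosphorylation list 7 of 11 tested were lower and none higher (median -1.57), but on FPKM as deposited 1 was higher, none was lower and the median was -0.24. None was called without January larva 3 or without May larva 1. ATP synthase subunit alpha, TRINITY_DN18757_c0_g2, had 289, 279.5 and 226 scaled FPKM in January larvae, against 1634, 1082 and 1118 in May larvae (log2 fold change -2.25 ± 0.33, adjusted p = 0.00387). In the list of citrate cycle and central carbon enzymes 7 of 14 tested were lower and 2 higher (median -2.22), against 3 higher and none lower without scaling, and none either way without January larva 3 or without May larva 1. Cytoplasmic malate dehydrogenase, TRINITY_DN19831_c0_g2, had 47.5, 81.9 and 42.8 scaled FPKM in January larvae, against 542, 438 and 244 in May larvae (log2 fold change -2.79 ± 0.43, adjusted p = 0.00418). Acyl-CoA desaturase, TRINITY_DN19691_c0_g1, which puts double bonds into fatty acids, had 79.3, 139 and 88.9 scaled FPKM in January larvae, against 811, 449 and 519 in May larvae. It was lower after scaling (log2 fold change -2.52 ± 0.37, adjusted p = 0.00395) and not called without it.

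Of 15 tested sugar, amino acid and energy enzymes 2 were higher and 3 lower in January larvae (median 0.18), which became 5 higher and 1 lower without scaling. The bifunctional 6-phosphofructo-2-kinase/fructose-2,6-bisphosphatase, TRINITY_DN24049_c0_g4, sets the level of a sugar phosphate that switches glycolysis and gluconeogenesis. It had 116, 144 and 71.6 scaled FPKM in January larvae, against 20, 32.9 and 12.8 in May larvae (log2 fold change 2.32 ± 0.44, adjusted p = 0.00798). The glutathione cycle enzyme 5-oxoprolinase, TRINITY_DN26780_c0_g1, had 1.27, 0.626 and 0.838 in January larvae, against 12.7, 13.8 and 13.5 scaled FPKM in May larvae (log2 fold change -2.92 ± 0.31, adjusted p = 0.00205). Among detoxification enzymes 1 of 10 tested was called, the UDP-glucuronosyltransferase TRINITY_DN24570_c0_g1, lower in January larvae after scaling only (log2 fold change -2.24 ± 0.32, adjusted p = 0.00356). In the selected table, the cytochrome P450 CYP4G56v1, TRINITY_DN22103_c0_g1, had 104, 178 and 173 scaled FPKM in January larvae, against 4030.2, 2804 and 1707 in May larvae (log2 fold change -4.18 ± 0.45, adjusted p = 0.00208). Insect CYP4G enzymes make the hydrocarbons that waterproof the cuticle.

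The largest rises among selected genes with a name were in enzymes of varied roles. Pseudouridine-5'-phosphatase-like, TRINITY_DN22937_c0_g1, had 21.5, 24.6 and 29.0 scaled FPKM in January larvae, against 0.824, 0.509 and 0 in May larvae, and it remained called with any single larva left out (log2 fold change 4.21 ± 0.36, adjusted p = 0.00188). This unigene passed the filter through January larvae alone, so these calls are a description. Cystathionine beta-synthase-like, TRINITY_DN21426_c0_g1, begins the route from homocysteine to cysteine. Its values were 14.8, 22.9 and 28.1 scaled FPKM in January larvae, against 0.307, 0.587 and 0 in May larvae (log2 fold change 4.12 ± 0.39, adjusted p = 0.00193). It too passed the filter through January larvae alone. Dual specificity protein phosphatase 14, TRINITY_DN23062_c0_g7, had 46.4, 91.2 and 81.9 in January larvae, against 5.48, 2.62 and 3.17 scaled FPKM in May larvae, again called in every run with 1 larva left out (log2 fold change 3.95 ± 0.39, adjusted p = 0.00195).

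Chromatin regulators were higher in January larvae where they were called. Of 23 tested chromatin regulators of the unselected annotation 3 were higher and none lower (13.0%), with a median of 0.61. The share was close to the 14.3% of all unigenes, and 9.49% of the beetle best matches of that annotation were higher. Without scaling 7 were higher and none lower. Histone-lysine N-methyltransferase 2E, TRINITY_DN24122_c1_g2, a SET domain protein, had 16.3, 18.0 and 14.5 scaled FPKM in January larvae, against 1.40, 2.11 and 1.86 in May larvae (log2 fold change 2.63 ± 0.30, adjusted p = 0.00229). Runt-related transcription factor 2, TRINITY_DN24512_c0_g1, of a family that directs cell fate, was the 1 called member of 18 tested developmental signalling unigenes (5.56%), of which 8 were higher without scaling. It had 14.7, 30.2 and 23.4 scaled FPKM in January larvae, against 2.28, 0 and 1.83 in May larvae (log2 fold change 3.44 ± 0.57, adjusted p = 0.00513).

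Among the study-selected genes, 5 of 7 tested basal transcription and chromatin unigenes were higher and none lower (median 2.37), and 5 were higher and none lower without scaling as well. Without January larva 3 or without May larva 1, only 1 was called. The homolog of vacuolar protein sorting-associated protein 72, TRINITY_DN23225_c1_g1, is in yeast and animals a subunit of the complex that places a variant histone. It had 71.2, 111 and 94.9 scaled FPKM in January larvae, against 11.8, 4.27 and 3.36 in May larvae (log2 fold change 3.79 ± 0.47, adjusted p = 0.00262), and it kept its call without May larva 1 but not without January larva 2 or 3 or May larva 2. Histone acetyltransferase GCN5, TRINITY_DN22495_c1_g2, had 13.9, 11.3 and 9.98 in January larvae, against 0.651, 1.51 and 1.32 scaled FPKM in May larvae (log2 fold change 2.57 ± 0.34, adjusted p = 0.00297). Zinc finger proteins of that table were higher in 10 and lower in 2 of 18 tested (median 1.51), which became 2 higher and none lower without January larva 3 and none either way without May larva 1. Those of the unselected annotation were higher in 2 and lower in 1 of 18 tested (median 0.95), against 9 higher and none lower without scaling. These were 11.1 and 5.56% after scaling, beside 14.3 and 9.81% of all unigenes. Zinc finger protein chinmo-like, TRINITY_DN25066_c0_g3, which in Drosophila keeps cells in a juvenile state, had 6.19, 8.84 and 8.87 scaled FPKM in January larvae, against 0.613, 0.470 and 0.457 in May larvae (log2 fold change 2.55 ± 0.29, adjusted p = 0.00227). This unigene passed the filter through January larvae alone.

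RNA and translation factors split. Of 20 tested unigenes for RNA processing, ribosome assembly and tRNA ligases in that study-selected table, 6 were higher and 7 lower in January larvae (median 0.17), which became 10 higher and 1 lower without scaling. The bifunctional glutamate/proline tRNA ligase TRINITY_DN23537_c1_g1, which charges tRNAs for translation, had 1.10, 0.812 and 0.806 scaled FPKM in January larvae, against 23.2, 30.9 and 45.7 in May larvae, and it remained called with any single larva left out (log2 fold change -4.12 ± 0.36, adjusted p = 0.00188). Ribosome maturation protein SBDS, TRINITY_DN23088_c0_g2, which readies the large ribosomal subunit, had 53.8, 56.5 and 67.2 in January larvae, against 5.31, 4.03 and 13.0 scaled FPKM in May larvae (log2 fold change 2.97 ± 0.43, adjusted p = 0.00383). In the unselected RNA processing list 2 of 16 tested were higher and 3 lower (median -0.40), which became 3 higher and none lower without scaling (median 0.84). After scaling these were 12.5 and 18.8%, beside 14.3 and 9.81% of all unigenes.

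Of 18 tested protein kinases and phosphatases 2 were higher in January larvae and none lower (median 0.57), and 8 were higher without scaling. The share of 11.1% stood beside 14.3% of all unigenes and 9.49% of the beetle best matches of the annotation. The tyrosine kinase Fer-like unigene TRINITY_DN24864_c0_g1 had 9.30, 11.9 and 9.02 scaled FPKM in January larvae, against 0.498, 0.679 and 1.06 in May larvae (log2 fold change 2.67 ± 0.31, adjusted p = 0.00239). Tyrosine-protein kinase Dnt, TRINITY_DN21518_c1_g3, of a receptor family that binds Wnt proteins, had 5.0, 4.07 and 2.90 in January larvae, against 0.287, 0.300 and 0.520 scaled FPKM in May larvae (log2 fold change 1.85 ± 0.27, adjusted p = 0.00366). Both kinases passed the filter through January larvae alone, so their calls are a description. They kept their calls without January larva 3. The Fer-like unigene lost its call without May larva 1 or 2, and Dnt lost its call without January larva 2 or any May larva. Of 17 tested ubiquitin and signalosome unigenes 3 were higher and 1 lower (17.6 and 5.88%, beside 14.3 and 9.81% of all unigenes). Without scaling 7 were higher and none lower. The lower one, RING finger protein 10-like, TRINITY_DN24719_c0_g2, had 25.7, 19.9 and 23.1 scaled FPKM in January larvae, against 53.8, 58.1 and 56.1 in May larvae. Its log2 fold change of -1.26 ± 0.24 (adjusted p = 0.00802) turned to 0.08 without scaling.

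Transcript sequence was held for 430 unigenes, of which 93 were tested and 17 called, and 2 of the called ones had a named beetle match. These are shown as examples of a transcript behind a higher and a lower call. Each line is the first 240 bases of the longest reading frame on the assembled transcript, with the start codon in capitals. The kinase frame starts at base 183 of 2460 as assembled. The acid phosphatase frame starts at base 16 of 1152 on the reverse complement.
Tyrosine-protein kinase Dnt, TRINITY_DN21518_c1_g3: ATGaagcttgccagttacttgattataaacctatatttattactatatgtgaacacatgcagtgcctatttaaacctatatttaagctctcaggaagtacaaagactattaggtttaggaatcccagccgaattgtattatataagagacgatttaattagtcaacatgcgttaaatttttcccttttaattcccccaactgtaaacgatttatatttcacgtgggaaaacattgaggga
Prostatic acid phosphatase-like, TRINITY_DN17797_c0_g1: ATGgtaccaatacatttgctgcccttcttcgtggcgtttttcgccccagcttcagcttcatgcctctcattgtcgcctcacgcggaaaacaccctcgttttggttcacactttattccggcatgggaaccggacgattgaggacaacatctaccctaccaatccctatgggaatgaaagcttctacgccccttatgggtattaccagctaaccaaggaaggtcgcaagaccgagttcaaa
The acid phosphatase was called lower in January larvae, with 0.368, 0.328 and 0 scaled FPKM in January larvae, against 4.71, 3.41 and 4.39 in May larvae (log2 fold change -2.07 ± 0.25, adjusted p = 0.00254). It passed the filter through May larvae alone.

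Of 7 tested muscle proteins 2 were higher in January larvae (28.6%, beside 14.3% of all unigenes) and none lower (median 1.55), and 4 were higher without scaling. Troponin I, TRINITY_DN26658_c1_g1, a part of the thin filament, had 696, 668 and 1312 scaled FPKM in January larvae, against 329, 252 and 202 in May larvae, with groups that did not overlap and no call (log2 fold change 1.72 ± 0.40, adjusted p = 0.0156). The muscle calcium channel subunit alpha-1, TRINITY_DN26185_c0_g1, was called at low levels of 2.47, 3.34 and 3.94 in January larvae, against 0.287, 0.757 and 0.142 scaled FPKM in May larvae (log2 fold change 1.62 ± 0.28, adjusted p = 0.00576). This channel unigene passed the filter through January larvae alone. In the study-selected muscle and cytoskeleton list 2 of 9 tested were higher (22.2%) and 4 lower (44.4%), beside 29.1 and 37.4% of all tested rows of the study's table. The list median was -1.71, and 3 were higher and 1 lower without scaling. Its muscle myosin heavy chain, TRINITY_DN25111_c1_g1, the motor of contraction, went the opposite way, with 8.57, 15.7 and 9.71 scaled FPKM in January larvae, against 356, 781 and 176 in May larvae (log2 fold change -4.94 ± 0.58, adjusted p = 0.00235). A high mobility group protein, TRINITY_DN24245_c0_g1, a DNA-binding protein, sits in this list through its description only and was higher (log2 fold change 2.91 ± 0.37). Of 14 tested neural unigenes 2 were higher and 1 lower, against 3 higher and 1 lower without scaling. After scaling these were 14.3 and 7.14%, beside 14.3 and 9.81% of all unigenes. Both odorant unigenes tested were not called.

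Among immune and cuticle unigenes of the unselected annotation, 1 of each was called. Dual oxidase, TRINITY_DN27389_c0_g1, which makes peroxide at gut surfaces in Drosophila, was the 1 called member of 10 tested immune unigenes. It had 6.75, 1.95 and 2.87 scaled FPKM in January larvae, against 28.6, 25.7 and 35.0 in May larvae (log2 fold change -2.78 ± 0.43, adjusted p = 0.0044), and it was not called without scaling, where 1 other immune unigene was higher. The antibacterial attacin-B-like unigene TRINITY_DN19113_c0_g2 had 141, 62.9 and 26.6 scaled FPKM in January larvae, against 813, 458 and 31302 in May larvae, so that May larva 3 stood far above the rest (log2 fold change -5.17 ± 1.64, adjusted p = 0.0429, not called). Transferrin-like, TRINITY_DN25286_c1_g2, an iron carrier of the blood, had 126, 51.9 and 25.1 in January larvae, against 1115, 516 and 2327 scaled FPKM in May larvae (log2 fold change -4.30 ± 0.77, adjusted p = 0.00662), also without a call before scaling. The adult-specific rigid cuticular protein 15.7, TRINITY_DN17968_c0_g1, had 1.85, 4.20 and 1.43 scaled FPKM in January larvae. It was listed at 0 in all 3 May larvae, so it passed the filter through January larvae alone (adjusted p = 0.00664). Pupal cuticle protein 36-like, TRINITY_DN17443_c0_g1, was not called (adjusted p = 0.0572).

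Transposable elements were also called both ways, in 3 higher and 1 lower of 10 tested (median 1.2), against 5 higher and 1 lower without scaling. A unigene matching the R2DM retrotransposon, TRINITY_DN27163_c4_g1, whose kind inserts into ribosomal RNA genes, had 166, 119 and 284 scaled FPKM in January larvae, against 5671, 4028 and 9075 in May larvae (log2 fold change -5.05 ± 0.51, adjusted p = 0.00196). A putative endonuclease/reverse transcriptase, TRINITY_DN24329_c1_g1, had 9.34, 4.19 and 13.4 scaled FPKM in January larvae. It was listed at 0 in all 3 May larvae, so it passed the filter through January larvae alone (adjusted p = 0.00298). Reads of near-identical copies can be split among such unigenes, so these levels are uncertain.

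Other beetle matches of the unselected annotation were called outside the lists. Ras-related protein Rab-1A, TRINITY_DN25294_c0_g2, a switch of transport from the endoplasmic reticulum to the Golgi, had 5.62, 12.1 and 16.1 scaled FPKM in January larvae. It was listed at 0 in all 3 May larvae, so it passed the filter through January larvae alone (adjusted p = 0.00241). Protein diaphanous, TRINITY_DN25671_c2_g1, a formin that builds actin filaments, had 4.55, 9.47 and 9.21 in January larvae, against 0, 0 and 0.063 scaled FPKM in May larvae (log2 fold change 3.04 ± 0.34, adjusted p = 0.00213). It also passed the filter through January larvae alone. On the lower side, the protein fuzzy homolog TRINITY_DN24744_c0_g1, which in Drosophila orients hairs on cells, had 10.6, 2.51 and 6.29 scaled FPKM in January larvae, against 135, 114 and 100.3 in May larvae (log2 fold change -4.13 ± 0.47, adjusted p = 0.00223).

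Primer pairs for qPCR are held for 15 unigenes that the study picked with these libraries in view, and 9 of them were called here in larvae, 2 higher and 7 lower, which is a description and not independent evidence. Primers of the 2 higher unigenes and of 3 others are shown because they identify the transcript measured. Each is written 5′ to 3′ with its last 5 bases, where extension begins, in capitals, forward before reverse.
TRINITY_DN27537_c0_g1 forward (higher): ttgaagactcaccgaACGGG
TRINITY_DN27537_c0_g1 reverse (higher): tgctggcaacccaaaTAGCT
TRINITY_DN27207_c0_g1 forward (higher): gcaatgaataagctgGGCGG
TRINITY_DN27207_c0_g1 reverse (higher): agatcatcagcgtgtGCCAA
TRINITY_DN18927_c0_g1 forward (cathepsin L1-like, lower): aaactttggatgcgaTGGCG
TRINITY_DN18927_c0_g1 reverse (cathepsin L1-like, lower): acagcgcttcttcatCACCA
TRINITY_DN21780_c1_g1 forward (fructose-1,6-bisphosphatase 1, lower): tggccgaacagaccaAAGTT
TRINITY_DN21780_c1_g1 reverse (fructose-1,6-bisphosphatase 1, lower): atgagcaaagccaccGTGTA
TRINITY_DN20229_c0_g1 forward (not called): tgcagtggagattggAGCAG
TRINITY_DN20229_c0_g1 reverse (not called): tgttgacgccattagCCACT

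TRINITY_DN27537_c0_g1 carries no named match in the tables used here, and it rose the most of these 15. It had 1525, 2692 and 1347 scaled FPKM in January larvae, against 9.91, 5.63 and 12.9 in May larvae. It was higher by 7.46 ± 0.42 on the log2 scale (adjusted p = 0.00153) and remained called with any single larva left out. The study names TRINITY_DN27207_c0_g1 a putative glutamate synthase, an enzyme of nitrogen assimilation. It had 29.5, 29.9 and 26.0 scaled FPKM in January larvae, against 3.49, 3.72 and 2.60 in May larvae, with little spread within either month (log2 fold change 2.79 ± 0.28, adjusted p = 0.00196). Fructose-1,6-bisphosphatase 1, TRINITY_DN21780_c1_g1, a gluconeogenesis enzyme, had 43.7, 23.9 and 28.3 in January larvae, against 266, 160.5 and 145 scaled FPKM in May larvae (log2 fold change -2.53 ± 0.37, adjusted p = 0.00383). It was not called without scaling, and neither was staphylococcal nuclease domain-containing protein 1, TRINITY_DN22243_c0_g1, a protein of RNA decay and splicing with 6.92, 2.83 and 1.71 scaled FPKM in January larvae, against 44.2, 76.3 and 59.5 in May larvae (log2 fold change -3.78 ± 0.47, adjusted p = 0.00264). The other 6 unigenes were not called, and for each of them every scaled January value lay below every scaled May value. Of all unigenes tested 23.5% showed this. On FPKM as deposited the months overlapped for TRINITY_DN26187_c0_g1, TRINITY_DN22377_c1_g1, TRINITY_DN26090_c0_g1 and TRINITY_DN25425_c0_g4. The months stayed apart for TRINITY_DN20229_c0_g1 and TRINITY_DN22439_c0_g5.

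The most abundant unigenes of the larvae had no named match. TRINITY_DN19147_c0_g1 had 26.7, 6866 and 35.9 scaled FPKM in January larvae, against 289026, 168345 and 803271 in May larvae, and it alone took 28.5% of the FPKM of May larva 3. January larva 2 stood far above the other January larvae. It was called lower (log2 fold change -10.79 ± 2.21, adjusted p = 0.00991), and this call was lost under most alternatives, among them scaling over D. ponderosae matches, both smaller added constants, no trend, and leaving out January larva 1, January larva 3 or any May larva. TRINITY_DN20229_c0_g1 had 1419, 12984 and 2869.9 in January larvae, against 112326, 172096 and 47311 scaled FPKM in May larvae without reaching the threshold (log2 fold change -4.69 ± 1.12, adjusted p = 0.0167). At the other end, TRINITY_DN21877_c2_g2 had 15065, 28591 and 5367 scaled FPKM in January larvae, against 84.9, 40.6 and 90.3 in May larvae (log2 fold change 7.58 ± 0.71, adjusted p = 0.0019). TRINITY_DN19707_c2_g1, the most abundant unigene of every January larva, was not called, with 40149.6, 61086 and 34914 scaled FPKM in January larvae, against 4377, 7581 and 1204 in May larvae (adjusted p = 0.018).

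Some unigenes divided the May larvae instead of the months. With 10 scaled FPKM or more in the January larvae and May larva 1, and under 1 in May larvae 2 and 3, there were 6 unigenes, 2 of them named. They were picked out after their values were seen. Mitochondrial cytochrome oxidase subunit I, TRINITY_DN20652_c0_g1, had 3145, 5529.9 and 6208 scaled FPKM in January larvae, against 6080.1, 0.639 and 0 in May larvae. Mitochondrial cytochrome b, TRINITY_DN20349_c0_g2, had 2634, 4228 and 6321 in January larvae and 5292, 0 and 0 in May larvae. Neither was called (adjusted p = 0.0978 for the cytochrome b unigene), and a value listed at 0 may be a failed estimate.

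Best matches to other organisms were read from the annotation rows held, which are only a part of the annotation. A best match does not show that a transcript came from that organism, so the shares do not measure these organisms. The study states that it removed nematode sequences and then repeated its annotation. The values used here still include unigenes with nematode best matches. Nematode matches took 0.00737, 0.0511 and 0.110% of the FPKM of January larvae and 0.142, 0.000626 and 0.248% of that of May larvae, with overlapping groups (exact permutation p = 0.5). Of 52 nematode matches listed, 7, 13 and 34 reached 1 FPKM before scaling in January larvae 1 to 3. In May larvae 1 to 3 it was 23, 2 and 4. The highest counts were in January larva 3 and May larva 1, the larvae that stood apart. A link was not tested. Vertebrate matches took 0.0192, 0.00587 and 0.00611% in January larvae and 0.00182, 0.00199 and 0.000673% in May larvae, which did not overlap (exact permutation p = 0.1, the smallest possible). None of 8 tested nematode matches was called, and 1 of 7 tested vertebrate matches was called lower (14.3%, beside 9.81% of all unigenes). This was a liver fatty acid-binding protein match, TRINITY_DN31770_c0_g1, listed at 0 in all 3 January larvae and at 6.90, 8.73 and 10.9 scaled FPKM in May larvae. It passed the filter through May larvae alone and kept its call with any single larva left out (adjusted p = 0.00188). Their part in the other results was not tested.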

How the data were processed

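Single whole larvae gave poly(A) libraries that were sequenced as paired ends. The authors trimmed reads with SeqPrep and Sickle, assembled unigenes with Trinity, refined them with TransRate and CD-HIT, and deposited FPKM per unigene for each library. The submitters' processing notes name CASAVA, Bowtie2 2.3.5.1 and RSEM 1.2.31. No counts were used, so no counting interval is given. Depth is known as the clean bases that the study reports for each library, which overlapped between January and May larvae. The GC content and base error rate that it reports did not overlap. GC content was higher and the error rate lower in every May larva than in any January larva. FPKM sums were 1065220 to 1788300. FPKM are relative to the other unigenes of a library, so directions depend on the scaling.

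Here FPKM were divided by median-of-ratios factors and tested as log2(FPKM + 1) with limma 3.58.1 in R 4.3.3, with a trend, two-sided, and Benjamini-Hochberg adjustment over 11635 unigenes. Values per library were compared by exact permutation tests (scipy 1.17.1, Python 3.11.15). The scripts were tested on simulated data. The unit of replication is the insect, and p-values measure the spread between these insects.

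Names came from the 1999 rows held of an Nr annotation (a part of it), 978 of them tested, and from the 712 rows held of the study's table of common genes, of which only names and pathway terms were used. Columns of the study's own fold changes and tests were not used. The comparison, the members and the lists were chosen with earlier results of these data known. Named unigenes were the 10 called with the largest change in each direction with a beetle match in the annotation. The same was taken from the common gene table. Both sets held only unigenes whose months did not overlap, so non-overlap is no result for them. Also named were the 15 with primers, up to 4 called members of each list and its 2 most abundant, and the 5 most abundant of each group. Not all of them are described. No genome was used, so positions are on transcripts, and unigenes of 1 gene or near-identical copies may share reads. Alternatives were other scalings, added constants, filters, models and thresholds, and leaving out each larva. Leaving out the larvae that stood apart for the counts of lists was chosen after seeing the data.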

Additional observations from a re-analysis of the deposited data

How the results depend on the processing

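The 2803 calls became 181 without a filter on low values and 4987 at an adjusted p under 0.05, and lay between 127 and 1443 with 1 larva left out. They became 4149 on FPKM as deposited, 2740 with factors over D. ponderosae matches, 2477 without the trend and 3499 with all 12 libraries. The share of calls higher in January larvae, 59.3%, was 89.8% on FPKM as deposited, 88.7% at equal sums without the 20 most abundant unigenes, 62.7% with factors over D. ponderosae matches, 61.2% with log2(FPKM + 0.1), 61.6% with log2(FPKM + 0.5), 61.2% with 1 FPKM required in all 3 larvae of a group, 55.3% without the trend, 55.2% with all 12 libraries and 33.1% without a filter. With 1 larva left out it ran from 38.6% without May larva 1 (39.2% without May larva 2) to 68.5% without January larva 3. Beyond the settings' own construction the cause was not tested.

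Without January larva 3 and May larva 1 together limma called 0 unigenes, with 4729 at an unadjusted p under 0.05 and a smallest adjusted p of 0.034. Replicate numbers are shared between the months, but each library came from a single insect and no pairing was stated. Deviations of same-numbered larvae correlated at -0.52, 0.13 and -0.43. Deviations add up to 0 within a month, so these correlations cannot decide whether the numbers pair the insects. With the replicate block limma called 0 unigenes, with 5831 at an unadjusted p under 0.05 and a smallest adjusted p of 0.0211. Among the 124 called unigenes named by rule, the median absolute log2 fold change was 3.01, against 4.03 with log2(FPKM + 0.1). On FPKM as deposited, 31 of them lost their call and RING finger protein 10-like, TRINITY_DN24719_c0_g2, reversed to 0.078. The January mean minus the May mean of the share of plastid matches was 5.25e-05%, and it reversed to -1.50e-05% without May larva 2 (up to 0.000116% without May larva 3) and to -9.70e-05% without the 20 most abundant unigenes.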
